A study of Homo sapiens with 6 samples.

Results

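The genes described here are those of the lysosome, namely cathepsins, other acid hydrolases, lipid-handling proteins, membrane proteins, subunits of the proton pump and the transcription factors TFEB and TFE3. A list of 41 gene symbols was matched to the deposited table by Ensembl identifier, and 34 of the 59192 features in the table were members. The other 7, namely CTSD, CTSF, HEXA, GLB1, MANBA, MAN2B1 and MCOLN1, had no row under their own identifier and were not analysed here. One member with a row, CTSS, had a mean under 10 normalized counts, so that 33 members were tested.

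RNA was sequenced from SW480 cells, an established human colorectal cancer line, in 3 libraries of SW480-KD1 (the knockdown libraries) and 3 of SW480-NC (the control libraries), each from an independent experiment. Both cell lines carried Cas9 under puromycin selection and an EGFP-marked lentiviral guide RNA. The guide of SW480-KD1 targets HPSE, the gene of heparanase, and that of SW480-NC is a control guide. The sample labels give the genotype as HPSE-knockdown and control and name the knockdown line SW480-45, which the paper calls SW480-KD1. A single knockdown line was sequenced, so the knockdown of HPSE and other features of that line cannot be told apart, and whether either line is a clone is not given in the sources used here.

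Lysosomes are acidic organelles in which proteins, glycans and lipids are broken down by hydrolases that mostly arrive from the Golgi, bound to mannose 6-phosphate receptors. A proton pump keeps the lumen acidic, and TFEB and TFE3 raise many lysosomal genes together when they enter the nucleus. Heparanase cleaves heparan sulfate and is itself a lysosomal guest: its precursor is taken up and cut to the active enzyme by cathepsin L. Cathepsins are also released by tumor cells, where they can cleave extracellular matrix.

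HPSE was measured first, as a check of the labels. It had 136, 172 and 146 normalized counts across the knockdown libraries and 269.9, 295 and 246 across the control libraries, so that every knockdown library lay below every control library. This was a log2 fold change of −0.83 (standard error 0.14), with an adjusted p of 0.0547 from limma and of 0.000948 to 0.199 over the alternatives. These values are of RNA, and the paper reports efficient knockdown of HPSE with its guides, determined by western blot. The libraries held 33221323 to 39802365 reads on the features. Colon epithelial markers were abundant, with EPCAM at 17564 and 18657 normalized counts in SW480-KD1 and SW480-NC, and the 7 of 9 markers with a row summed to 129126, 132077 and 123149.5 in SW480-KD1 and 144637, 141385 and 150921 in SW480-NC. One of them, KRT20, a keratin of differentiated colon cells, was lower in SW480-KD1 (log2 fold change −0.81, standard error 0.073, adjusted p = 0.00719 from limma). Of these 7 markers, 6 had a negative log2 fold change (median −0.21), and the sums did not overlap. The libraries of 4 markers (57.1%) did not overlap, 1 higher and 3 lower in SW480-KD1, against 23.4% of all features tested. Of the 7 macrophage and osteoclast markers, 3 had a row. CD14 and CSF1R together summed to 61.2, 53.3 and 39.6 normalized counts in SW480-KD1 and 65.9, 43.5 and 59.4 in SW480-NC, while LYZ, which intestinal epithelium also makes, had 61218 and 69596. The 4 of 6 fibroblast and endothelial markers with a row summed to 385, 387 and 261 and 273, 214 and 225, nearly all of it COL1A1. COL1A2 was at or near 0 in every library. The 3 that were tested all had a positive log2 fold change, from 0.48 to 1.65 (median 0.67). Of these 3, 1 had an unadjusted p under 0.05, as did 16.2% of all features tested, and all 3 overlapped between the cell lines. The part of these differences in the lysosomal values was not tested, and in such bulk RNA fewer cells of a type and less RNA per cell cannot be told apart.

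The members were expressed over a wide range. To compare genes, the mean normalized count was divided by the length of the principal transcript in GENCODE 29. On this scale CD63, a tetraspanin of late endosomes and lysosomes, stood highest, at 10334 ± 693 normalized counts per kilobase in SW480-KD1 and 9911 ± 801 in SW480-NC (SD, n = 3). It was followed by PSAP, the precursor of the saposins that help to degrade sphingolipids, at 8746 ± 274 and 7905 ± 821. CTSC, the cathepsin that activates serine proteases of granules, came next at 3389 ± 143 and 3435 ± 98.7. These 3 genes kept the same order in both cell lines. LAMP1, PPT1 and CTSH came after them, within 2003 to 2478, and in SW480-KD1 the means of LAMP1 and CTSH differed by less than the SD of CTSH. At the low end were CTSK, the collagenase of osteoclasts, CTSO, a little-studied cysteine cathepsin, and CTSS, the cathepsin of antigen-presenting cells. CTSS rested on 3, 8 and 16 reads in the SW480-KD1 libraries and 6, 11 and 3 across the control libraries, which overlapped, and no difference was detectable at this depth. In all, the 34 members took between 0.331% and 0.336% of the reads in the SW480-KD1 libraries and between 0.304% and 0.324% in those of SW480-NC. These shares did not overlap, but the summed normalized counts did, at 115426 to 120621 and 109438 to 119490. Neither was tested.

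**Figure D1:**
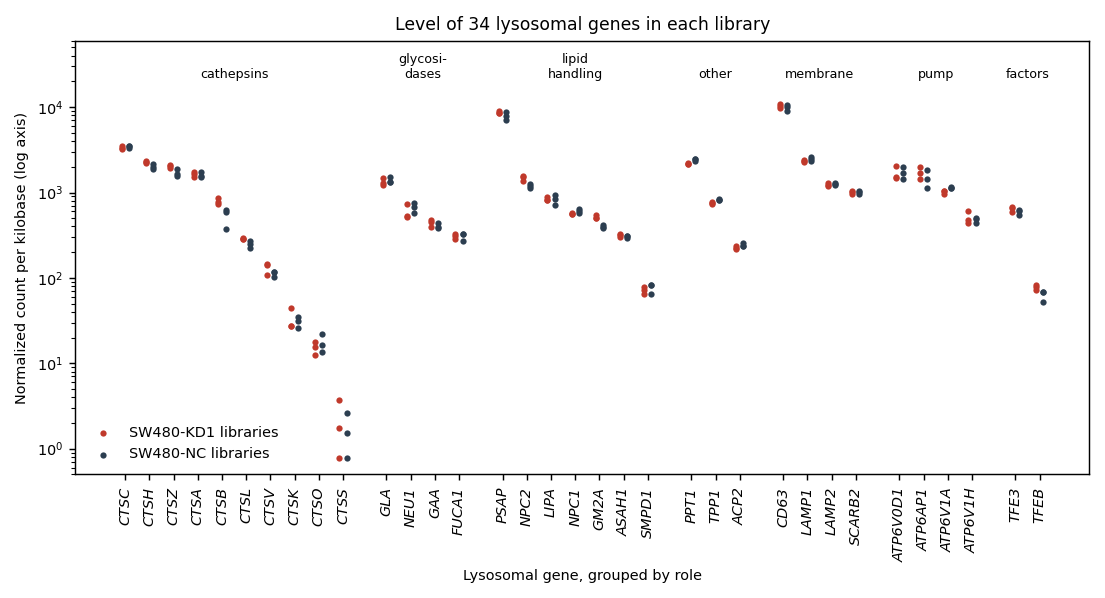
Normalized count per kilobase of principal transcript (log axis) of the 34 members in each library, grouped by role and ordered by level; red points are the 3 SW480-KD1 libraries and dark points the 3 SW480-NC libraries. The points of both cell lines lie close together for nearly every gene, from CD63 and PSAP at the top to CTSS at the bottom.

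The comparison of the cell lines asked whether RNA of lysosomal genes differed after knockdown of HPSE. With limma on log2(normalized count + 1), fitted over the 21703 features whose mean reached 10 normalized counts, none of the 33 members passed an adjusted p of 0.05, where 0.802% of all features tested did. At an unadjusted p under 0.05, 7 members were called, 5 higher and 2 lower in SW480-KD1, where 8.1% and 8.15% of all features were. This is 21.2% of the members, against 16.2% of all features tested and 20.1% of those whose mean reached 50 normalized counts, a limit that 32 of the 33 members also passed. The 21703 features include loci without an Ensembl identifier, which all members have. In a fit of the 12662 Ensembl features alone, 2364 had an unadjusted p under 0.05, and the members again counted 5 higher and 2 lower. In edgeR no member passed the adjusted threshold, and in DESeq2 only GM2A did, where 0.627% and 3.48% of the features passed. For 10 members (30.3%) all knockdown libraries lay on one side of all control libraries, against 23.4% of all features and 27.2% of those with a mean from 50 up. Of these, 7 were higher in SW480-KD1 and 3 lower, where 11.4% and 12% of all features were. The unadjusted counts moved with single libraries. Without SW480-NC replicate 1 or replicate 2, 3 members were higher in place of 5, and without SW480-NC replicate 3, 7 were. The count of lower members was 0 or 1 without any 1 of the libraries, and 0 with quantile normalization or in DESeq2.

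Differences of a large size could be bounded for single genes in the main limma fit. Intervals of the alternatives are not given here. The median log2 fold change of the 33 members was 0.049, from −0.17 for NEU1 to 0.60 for CTSB, and the median over all features was −0.0048. The 95% interval of the log2 fold change lay within 2-fold in both directions for 32 of the 33 members (97.0%), against 64.9% of all features and 89% of those with a mean of at least 50. The exception was CTSB, whose interval reached 1.04.

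**Figure D2:**
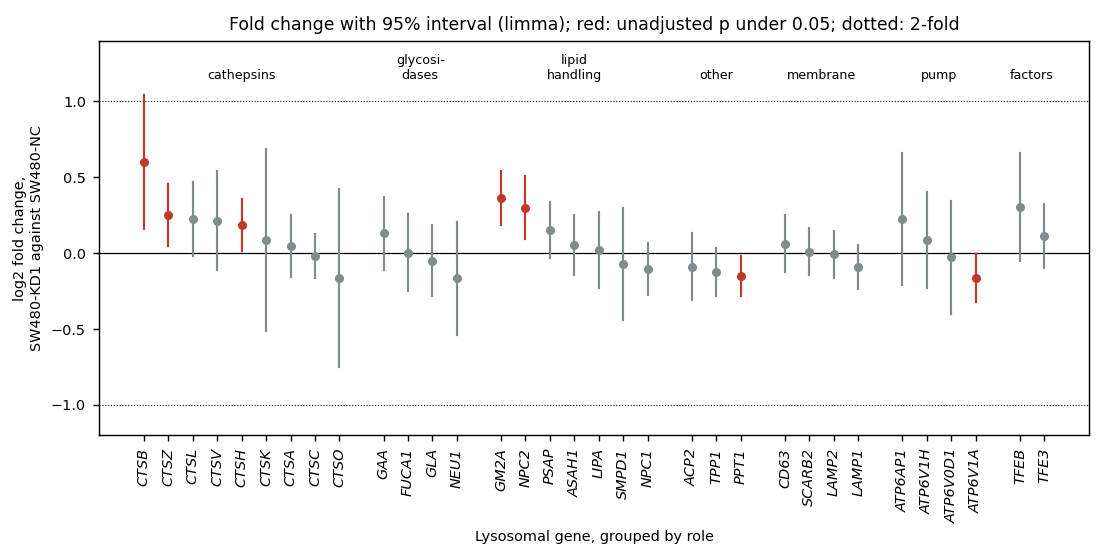
Log2 fold change of the 33 tested members (points, positive when higher in SW480-KD1) with its 95% interval from limma (bars), grouped by role. Red marks the 7 members with an unadjusted p under 0.05, and the dotted lines mark 2-fold; all intervals but that of CTSB lie between the dotted lines.

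Among the cathepsins, the proteases of the lysosome, 10 of 12 had a row and 9 were tested. Of these 9, 7 had a positive log2 fold change, 3 had an unadjusted p under 0.05, all higher in SW480-KD1 where 8.1% of all features were, and 0 passed the adjusted threshold. In either direction, 16.2% of all features had such a p, and 20.1% of those with a mean of at least 50. The median was 0.19, and with quantile normalization CTSC, at 0.046, was positive too. The signs of 3 cathepsins changed when single libraries were left out. CTSK, positive in the main fit, ran from −0.14 to 0.21, CTSC from −0.053 to 0.0055 and CTSO from −0.32 to 0.017. CTSB, a cysteine protease that tumor cells can secrete, had the largest difference of any member. It had 2839, 3309 and 2982 normalized counts across the knockdown libraries and 2413, 2306 and 1439.9 across the control libraries. The groups did not overlap, and SW480-NC replicate 3 lay well below the other control libraries. The means were 3043 ± 241 (SD, n = 3) and 2053 ± 534 (SD, n = 3), a log2 fold change of 0.60 (standard error 0.19, 95% interval 0.16 to 1.04, adjusted p = 0.196 from limma). When that library was left out, limma gave 0.36 with an adjusted p of 0.143, and over all alternatives the adjusted p ranged from 0.0529 to 0.423. CTSB thus did not pass in any of them.

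CTSZ, a carboxypeptidase of the same family, had 3078, 3121 and 2875 normalized counts in SW480-KD1 and 2361, 2471 and 2807 in SW480-NC (log2 fold change 0.25, standard error 0.087, adjusted p = 0.227 from limma). CTSH, an aminopeptidase, had 4989.5, 4792 and 5166 and 4316, 4126 and 4715 (log2 fold change 0.19, standard error 0.074, adjusted p = 0.279 from limma). For both genes all knockdown libraries lay above all control libraries, by a gap of 68.6 normalized counts for CTSZ and 76.7 for CTSH. CTSL, the protease that processes heparanase, had 615, 642 and 621 normalized counts across the knockdown libraries and 547, 482 and 582 across the control libraries. These did not overlap either, and the log2 fold change of 0.22 had a 95% interval of −0.017 to 0.47 (adjusted p = 0.336 from limma). Its closest relative CTSV, made in thymus and testis and also seen in tumors, had 468, 611 and 627 in SW480-KD1 and 442, 512 and 506 in SW480-NC, with overlap (log2 fold change 0.22, standard error 0.14, adjusted p = 0.488 from limma). The transcript of CTSL shared 0.752% of its 50-base stretches with those of other genes, and the genes sharing most were CTSL pseudogenes. The principal transcript of CTSV shared none with CTSL. CTSA, the protective protein of the sialidase, CTSC, CTSK and CTSO had log2 fold changes between −0.16 and 0.087, and their libraries overlapped. CTSA shared 24.0% of its stretches with NEURL2, PLTP and AL008726.1, which overlap it on the opposite strand. Summed over the 10 genes, the cathepsins had 22104, 22637 and 22496 normalized counts in SW480-KD1 and 20251, 19637 and 20548 in SW480-NC, so the sums, which were not tested, did not overlap. Of the sums of the other roles, that of PPT1, TPP1 and ACP2 did not overlap either, in the opposite direction, with 12014, 12104 and 11702 after knockdown and 13361, 12747 and 13422 in the control, and the rest overlapped.

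**Figure D3:**
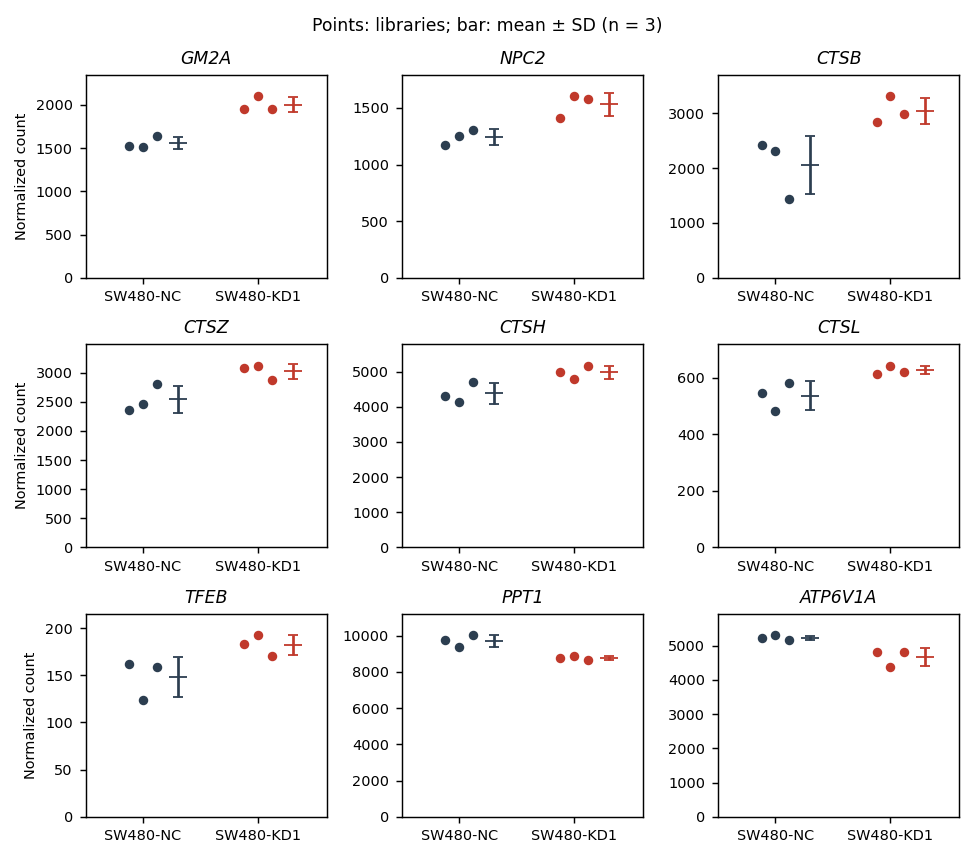
Normalized counts of 9 members in each library (points), with the mean ± SD of the 3 libraries of a cell line beside them; each axis starts at 0. All 9 are among the 10 members (30.3%) without overlap, so the points of the cell lines lie apart in each panel by choice of genes. Of all features tested, 23.4% did not overlap, and 27.2% of those with a mean of at least 50. The low point of CTSB in SW480-NC is replicate 3.

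The glycosidases remove sugars from glycoproteins and glycolipids. Of 8 listed genes, 4 had a row, and none of these 4 passed an unadjusted p of 0.05. GAA, which breaks down glycogen, had a log2 fold change of 0.13 (95% interval −0.11 to 0.37). GLA, the alpha-galactosidase that is deficient in Fabry disease, had −0.049 (−0.28 to 0.19). FUCA1, an alpha-fucosidase, had 0.0023 (−0.25 to 0.26), with mean normalized counts of 629.8 ± 38.4 (SD, n = 3) after knockdown and 630.1 ± 60.7 (SD, n = 3) in the control. NEU1, the lysosomal sialidase, had −0.17 (−0.54 to 0.21), and its 1504, 1090.1 and 1059.9 normalized counts in SW480-KD1 overlapped the 1523, 1163 and 1386 in SW480-NC. All 4 genes overlapped between the cell lines.

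The lipid-handling group held the member with the smallest p. GM2A, the activator protein that presents GM2 ganglioside for breakdown, lies at chr5:151212150-151270440 on the plus strand of GRCh38 in GENCODE 29. It had 1951, 2099.7 and 1958 normalized counts across the knockdown libraries and 1528, 1512 and 1635 across the control libraries, so the groups lay apart by 316, more than the range within either. The means were 2003 ± 84.1 (SD, n = 3) and 1559 ± 66.7 (SD, n = 3), a log2 fold change of 0.36 (standard error 0.077, 95% interval 0.18 to 0.54, adjusted p = 0.097 from limma). GM2A passed in DESeq2 on the recovered reads (adjusted p = 0.0189) and in no other alternative, with values up to 0.276. Its size was stable when each library was left out in turn, between 0.33 and 0.40.

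NPC2 carries cholesterol inside the lysosome and hands it to NPC1 in the membrane. It lies at chr14:74476192-74494177 on the minus strand. NPC2 had 1411, 1603 and 1578 normalized counts in SW480-KD1 and 1172, 1248 and 1309.5 in SW480-NC, again without overlap (log2 fold change 0.30, standard error 0.089, adjusted p = 0.176 from limma). Its partner NPC1 had mean levels of 2925 ± 47.9 (SD, n = 3) and 3149.8 ± 194 (SD, n = 3), with overlap (log2 fold change −0.11, standard error 0.073, adjusted p = 0.517 from limma). Its point estimate was thus of opposite sign to that of NPC2, with an interval of −0.27 to 0.064 that included 0. Of the 7 genes of this group, GM2A and NPC2 had an unadjusted p under 0.05, both higher, where 8.1% of all features were. In either direction, 20.1% of features with a mean of at least 50 had such a p. PSAP had 24705, 26029 and 24626 normalized counts in SW480-KD1 and 20526, 22376 and 25208 in SW480-NC (log2 fold change 0.15, standard error 0.079, adjusted p = 0.394 from limma), with 1 control library among those of the knockdown. ASAH1, the acid ceramidase, SMPD1, the acid sphingomyelinase, and LIPA, the acid lipase, had log2 fold changes of 0.055, −0.072 and 0.021, and all 3 overlapped.

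PPT1 and TPP1, the enzymes lost in 2 forms of neuronal ceroid lipofuscinosis, and ACP2, an acid phosphatase, all had negative log2 fold changes. PPT1, which removes palmitate from proteins, had 8772, 8846 and 8632 normalized counts in SW480-KD1 and 9779, 9345 and 10012 in SW480-NC (log2 fold change −0.15, standard error 0.056, adjusted p = 0.253 from limma). Its libraries did not overlap, but 28.8% of the 50-base stretches of its transcript were shared with CAP1, which overlaps it on the opposite strand, and whether reads were counted by strand is not given in the sources used here. TPP1, a tripeptidyl peptidase, had 2715, 2764 and 2587 and 3021, 2879 and 2896, without overlap (log2 fold change −0.13, standard error 0.068, adjusted p = 0.408 from limma). Of its 50-base stretches, 19.6% were shared, most of them with AC091564.7, which overlaps it on the same strand. ACP2 overlapped, with a log2 fold change of −0.088.

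The membrane proteins did not pass either threshold. LAMP1, a heavily glycosylated protein of the lysosomal membrane, had 6170.5, 6438 and 6239 normalized counts across the knockdown libraries and 6737, 6378 and 6946 across the control libraries (log2 fold change −0.089, standard error 0.062, adjusted p = 0.517 from limma). LAMP2, its relative with a role in autophagy, had 4993, 4776 and 5280.5 and 5034, 5212 and 4876 (log2 fold change −0.0078, standard error 0.067, adjusted p = 0.968 from limma). Both overlapped between the cell lines, and the 95% intervals were −0.23 to 0.055 and −0.16 to 0.15. SCARB2, the receptor that brings glucocerebrosidase to the lysosome, and CD63 had log2 fold changes of 0.0099 and 0.061. None of these 4 had an unadjusted p under 0.05.

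Of the 4 proton pump subunits, ATP6V1A, the catalytic subunit, had 4829, 4367 and 4825 normalized counts in SW480-KD1 and 5213, 5304 and 5179 in SW480-NC (log2 fold change −0.16, standard error 0.067, adjusted p = 0.288 from limma). These did not overlap, and SW480-KD1 replicate 2 was the lowest. ATP6AP1, an accessory protein of pump assembly, was among the most variable members within a cell line, at 3562, 4163 and 2989 in SW480-KD1 and 2384, 3021 and 3870.2 in SW480-NC (log2 fold change 0.22, standard error 0.19, adjusted p = 0.6 from limma). ATP6V0D1, of the membrane sector, and ATP6V1H, a regulatory subunit, had log2 fold changes of −0.028 and 0.087 with overlap.

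Another list held the other subunits of the pump, of which 15 of 20 had a row and 13 were tested. One passed the adjusted threshold, as did 0.802% of all features tested. ATP6V1B1, the B subunit isoform best known from acid-secreting cells of the kidney, had 290.0, 316 and 294 normalized counts across the knockdown libraries and 143, 148 and 125 across the control libraries. The knockdown libraries were all above the control libraries, a 2.16-fold difference. Its log2 fold change was 1.11 (standard error 0.13, 95% interval 0.82 to 1.4, adjusted p = 0.0149 from limma). When libraries were left out, the log2 fold change stayed between 1.04 and 1.16, but the adjusted p was under 0.05 in 1 of the 6 fits, that without SW480-NC replicate 3, and 0.0539 to 0.0768 without any other 1 library. Without an intensity trend it was 0.0704. The widely expressed isoform ATP6V1B2 had 1053 ± 32.8 normalized counts per kilobase in SW480-KD1 and 1057 ± 70.3 in SW480-NC (SD, n = 3), and ATP6V1B1 had 155 ± 7.26 and 71.5 ± 6.19, so that B2 was the more abundant isoform. The log2 fold change of ATP6V1B2 was −0.0045 (95% interval −0.18 to 0.17). ATP6V0A4, another isoform of acid-secreting cells, had 10, 5 and 0 reads in SW480-KD1 and 0 in each SW480-NC library, too few to be tested. At an unadjusted p under 0.05, ATP6V0B was also called, as lower (log2 fold change −0.27, standard error 0.091, adjusted p = 0.219 from limma). ATP6V0E2 had 1 library far from the rest, SW480-KD1 replicate 2, at 2039 normalized counts where the other 5 had 327 to 524.

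**Figure D4:**
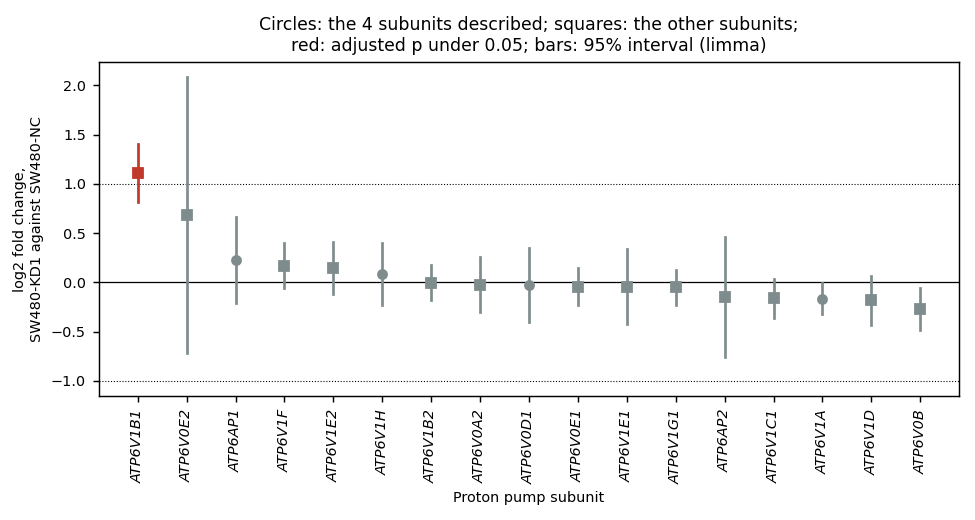
Log2 fold change with its 95% interval from limma for the 17 tested subunits of the proton pump, ordered by value; circles are the 4 subunits of the main list and squares the others. ATP6V1B1, in red, is the one subunit with an adjusted p under 0.05, and the dotted lines mark 2-fold.

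TFEB, the factor that coordinates lysosomal genes, had 77.4 ± 4.67 normalized counts per kilobase in SW480-KD1 and 63.0 ± 9.09 in SW480-NC (SD, n = 3), near SMPD1 and above only CTSK, CTSO and CTSS among the members with a row in SW480-NC. Per library it had 183, 192 and 171 normalized counts across the knockdown libraries and 162, 124 and 159 across the control libraries. These did not overlap, but the gap between them was 8.39 normalized counts, less than the range within either cell line (log2 fold change 0.30, standard error 0.15, adjusted p = 0.373 from limma). Leaving out the lowest of them, SW480-NC replicate 2, gave a log2 fold change of 0.18. TFE3, its relative, was more abundant, with 2317, 2233 and 2004 and 1864, 2059 and 2131, and overlapped (log2 fold change 0.11, standard error 0.090, adjusted p = 0.577 from limma). RNA levels do not show where these factors are in the cell.

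The 10-base CLEAR element to which TFEB binds is TCACGTGA with a G before it and a C after it. It thus contains TCACGTGA, which in turn contains the E-box CACGTG, and all 3 read the same on both strands. They were searched in the RefSeq promoter windows of GRCh38.p14, each from 250 bases before to 50 bases after a gene's start. Windows were found for 30 of the 41 genes. TCACGTGA occurred in those of 5 genes (16.7%), namely ATP6V0D1, CTSA, GAA, LAMP1 and MCOLN1, and in 0.980% of all 35116 windows of this length. CACGTG occurred in 9 (30.0%), the same 5 and CD63, CTSD, CTSF and NEU1, and in 7.26% of all windows. The full element was in those of GAA and MCOLN1, and in 0.353% of all windows. Members were counted by gene, with a match in any window of the gene, and the whole set by window. The shares thus differ in unit, and their difference was not tested. The matches in the genes with values are shown with their flanks, read 5′ to 3′ along the gene, with TCACGTGA in capitals; GAA and LAMP1 each have a pair of matches.
LAMP1, chr13:113297201-113297226, plus strand: cccgcgggaTCACGTGAcgcccgggc
LAMP1, chr13:113297228-113297253, plus strand: cggcgcagcTCACGTGAcaagcgctg
GAA, chr17:80101495-80101520, plus strand: gaggccgcgTCACGTGAcccaccgcg
GAA, chr17:80101540-80101565, plus strand: tcccgccggTCACGTGAcccgcctct
CTSA, chr20:45891300-45891325, plus strand: cgccggagtTCACGTGActcgtacac
ATP6V0D1, chr16:67481201-67481226, minus strand: cccttatggTCACGTGAggcgcttgc

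The 4 tested genes with TCACGTGA had log2 fold changes of −0.089 for LAMP1, 0.13 for GAA, 0.049 for CTSA and −0.028 for ATP6V0D1, and none had an unadjusted p under 0.05. Over the 6 tested genes with CACGTG, the log2 fold changes ran from −0.17 to 0.13, with a median of 0.01. Of the 7 members called at an unadjusted p under 0.05, 5 had a promoter window, and 0 of these 5 held CACGTG. A match of letters is a description of the window and not a measured binding site.

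A separate list held genes of the nutrient sensor mTORC1 on the lysosomal surface, which controls TFEB, and also MITF, TFEC, PPP3CB and ZKSCAN3. Of its 19 genes, 14 were tested. None passed the adjusted threshold in limma, and at an unadjusted p under 0.05, 2 were higher and 1 was lower in SW480-KD1. This is 21.4% of the list, against 16.2% of all features. FNIP2, a partner of folliculin, had 2227, 2438 and 2440.0 normalized counts in SW480-KD1 and 3141, 2871 and 2787 in SW480-NC (log2 fold change −0.31, standard error 0.080, adjusted p = 0.136 from limma). LAMTOR4, a subunit of the Ragulator scaffold, had 1420.3, 1585 and 1399 and 978, 1127 and 1301 (log2 fold change 0.38, standard error 0.12, adjusted p = 0.197 from limma). Neither gene overlapped between the cell lines. The median of the list was 0.023.

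Across all 7 further lists of lysosomal genes, 83 of 116 were tested, of which 10 (12%) had an unadjusted p under 0.05 against 16.2% of all features, 4 higher and 6 lower. ATP6V1B1 alone of the 83 passed the adjusted threshold, where 0.802% of all features did. Among 15 further hydrolases, 1 was higher and 1 lower at an unadjusted p under 0.05, and the median log2 fold change was 0.0015. The higher one, SCPEP1, a carboxypeptidase-like protein, stood at 943, 953 and 826 against 719.7, 653 and 724 normalized counts (log2 fold change 0.37, standard error 0.099, adjusted p = 0.14 from limma). Among 17 further membrane proteins, MFSD8, the product of a ceroid lipofuscinosis gene, had 381, 346 and 338 normalized counts in SW480-KD1 and 547, 468 and 449 in SW480-NC (log2 fold change −0.45, standard error 0.12, adjusted p = 0.134 from limma), and TMEM192 was next (log2 fold change −0.20, standard error 0.095, adjusted p = 0.344 from limma). The 95% interval of MFSD8 was −0.73 to −0.18, and the cell lines did not overlap for it.

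Sorting of the enzymes was represented by 12 of 13 genes, none with an unadjusted p under 0.05. M6PR, the cation-dependent mannose 6-phosphate receptor, had 1690.2, 2102 and 2142 normalized counts in SW480-KD1 and 4186, 2297 and 2316 in SW480-NC (log2 fold change −0.52, standard error 0.23, adjusted p = 0.327 from limma). SW480-NC replicate 1 stood far above the rest, and without it the log2 fold change was −0.23. IGF2R, the other receptor, had −0.027 (95% interval −0.20 to 0.15), and VPS35, of the retromer that recycles receptors, had −0.090. Of 9 autophagy genes tested, BECN1, a subunit of the kinase complex that starts autophagosomes, had 1532, 1639 and 1582 normalized counts in SW480-KD1 and 1948, 2006 and 1862 in SW480-NC, without overlap (log2 fold change −0.29, standard error 0.075, adjusted p = 0.134 from limma), and ATG9B followed at 0.47. The cystatins bind and block cysteine cathepsins, and 3 of 9 were tested. CST3 and CSTB, the abundant members, had log2 fold changes of −0.042 and 0.059. CST4, a salivary cystatin, was lower at an unadjusted p under 0.05, with 16.9, 50.6 and 17.0 normalized counts in SW480-KD1 and 37.7, 75.3 and 64.7 in SW480-NC, although these overlapped (log2 fold change −1.18, standard error 0.47, adjusted p = 0.28 from limma).

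Of the 7 listed genes without a row, no level can be given. In GENCODE 29, exons of 6 of these 7 overlapped exons of another annotated gene on the same strand, CTSF being the exception, and this was so for 2 of the 34 with a row, NPC2 and TPP1. The table also holds 33265 loci named by a transcript assembler, which carry no gene symbol, and whether reads of CTSD, HEXA, GLB1, MANBA, MAN2B1, MCOLN1 and CTSF were counted there was not tested.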

How the data were processed

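RNA of 3 SW480-KD1 and 3 SW480-NC samples was made into libraries with the NEBNext Ultra RNA kit. According to the paper, CapitalBio Corporation did the sequencing, on a HiSeq instrument. The submitters' processing notes name bcl2fastq, HISAT2 and DESeq2 and the build GRCh38, and the paper names Cuffdiff for differential expression. The counting tool, strand setting and assembler are not given in the sources used here. Deposited for every feature is a signal, namely counts scaled by the authors with 1 size factor per library. Division by the smallest step of each library turned 100% of them into whole reads within 0.01, with totals of 33221323 to 39802365.

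The values were matched to samples by column name. Of 59192 features, those with a mean of at least 10 were log2-transformed after adding 1 and tested by limma (3.58.1, R 4.3.3), modelling the trend of variance with intensity, and p-values of the 21703 features were adjusted by Benjamini-Hochberg. The alternatives were edgeR 4.0.16 and DESeq2 1.42.0 on recovered reads, a pseudocount of 5, other filters on low values, quantile normalization, TMM rescaling, no intensity trend, Ensembl genes only, a replicate block and leaving out each library. A two-sided exact permutation test of 1 gene cannot go below p = 0.1 with 3 libraries against 3, the value for genes whose groups do not overlap. Coordinates, overlaps and 50-base stretches shared between transcripts are from GENCODE 29 on GRCh38. The main limma fit and the edgeR and DESeq2 fits were checked on simulated counts. The changed features there had larger fold changes than any member, so changes of the members' size were not covered. The other alternatives were not checked in this way.

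The members and lists were chosen with earlier results of these data known. Values in each library are given for members with an adjusted p under 0.05 (none), the 8 with the smallest p, TFEB, TFE3, LAMP1, LAMP2, CTSB, CTSD, CTSL and members with a mean under 10. Of each other list, genes past the adjusted threshold are named, and otherwise the 2 with the smallest p. One gene that this rule names is not reported here. Genes named beside these (NEU1, PSAP, CTSV, TPP1, ATP6AP1, NPC1 and the comparators ATP6V1B2, ATP6V0A4, ATP6V0B, ATP6V0E2, IGF2R and CST3) were chosen after their values were seen. CTSD had no row.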

Additional observations from a re-analysis of the deposited data

How the results depend on the processing

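Of 16 alternatives, DESeq2 was the one in which a member passed the adjusted threshold (1 higher, GM2A); none passed as lower in any. The count of higher members at an unadjusted p under 0.05, 5 as reported, was 3 without an intensity trend, 3 with the replicate block and 3 to 7 when each library was left out. The count of lower members, 2 as reported, was 0 with all features tested, quantile normalization, no intensity trend, the replicate block and DESeq2, 1 with TMM rescaling and edgeR, and 0 to 1 when each library was left out. The count of members lower without overlap, 3 as reported, was 3 to 6 when libraries were left out, which leaves fewer libraries to overlap. The adjusted p of HPSE fell under 0.05 with all features tested (−0.83, adjusted p = 0.0451), a mean of at least 50 (−0.83, 0.0460), Ensembl genes only (−0.83, 0.0462) and DESeq2 (−0.83, 0.000948).

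For 22 of the 33 members the sign held in every alternative. The other 11 had sizes of at most 0.16 in the main comparison. With quantile normalization the log2 fold change was 0.047 for LAMP2, 0.046 for CTSC, −0.025 for FUCA1 and 0.021 for ATP6V0D1, and in edgeR it was 0.00019 for LAMP2. With each library left out, the log2 fold change ran between −0.045 and 0.027 for LAMP2, −0.053 and 0.0055 for CTSC, −0.14 and 0.21 for CTSK, −0.32 and 0.017 for CTSO, −0.12 and 0.016 for GLA, −0.080 and 0.052 for FUCA1, −0.19 and 0.0038 for SMPD1, −0.076 and 0.11 for LIPA, −0.020 and 0.044 for SCARB2, −0.19 and 0.082 for ATP6V0D1 and −0.048 and 0.19 for ATP6V1H. The causes were not tested.

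Same-numbered libraries did not deviate together (r of their deviations −0.0202 to 0.00741 over the features), so the numbers were taken as names only. With the replicate block, 12 features passed the adjusted threshold in place of 174, 0 of them members, and ATP6V1B1 had an adjusted p of 0.0948 from limma. CTSS, with 3 to 16 reads a library, was too low to be tested.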
